A study of Homo sapiens with 4 samples.

Results

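The set described here is 48 genes of mitosis, chosen by name from the gene column of the deposited count table: protein kinases that drive entry into mitosis, cyclins and anaphase regulators, kinetochore and checkpoint proteins, kinesins, spindle and cytokinesis proteins, condensin with topoisomerase II, and transcription factors of the late cell cycle. All 48 were among the 18368 genes with enough reads to test, out of 61267 in the table. RNA came from SU-DHL-2, an established line of human diffuse large B-cell lymphoma. One group of 2 libraries was given Spautin-1, an inhibitor of the deubiquitinases USP10 and USP13, at 10 µM for 36 h, and the other group of 2 libraries was given vehicle. Both groups are labelled wild type, and no time is given for vehicle. The labels name lymph node as the tissue, though the material is 1 cultured line, and they do not say whether libraries of a group came from separate cultures, so each p-value reflects the spread between libraries alone, which may be technical.

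At entry into mitosis, cyclin-dependent kinase 1 with cyclin B and the Polo-like and Aurora kinases set off chromosome condensation and the building of the spindle. Kinetochores, assembled on centromeres, hold the spindle microtubules through the Ndc80 complex, and checkpoint proteins hold back the anaphase-promoting complex until all chromosomes are attached. Most of these genes are transcribed late in the cell cycle, from promoters that often carry a cell cycle genes homology region, or CHR, which the MuvB proteins bind, and CCAAT boxes, which the factor NF-Y binds. In dividing lymphoma cells the whole programme is normally active.

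Promoters of 6 members are printed here because the results return to these genes: PLK1, KIF11, SPC24 and SPC25, which fell, and NDC80 and NUF2, which work in the same complex as SPC24 and SPC25 and did not pass the test. Each runs 5′ to 3′ over 300 bases, from 250 before the start site to 50 after it, as given by RefSeq on GRCh38.p14. The first listed window of each gene was used, and other start sites were not searched. The windows are chr16:23678639-23678938 on the plus strand for PLK1, chr10:92592880-92593179 on the plus strand for KIF11, chr19:11155733-11156032 on the minus strand for SPC24, chr2:168890381-168890680 on the minus strand for SPC25, chr18:2571307-2571606 on the plus strand for NDC80 and chr1:163321704-163322003 on the plus strand for NUF2. For KIF11 and NUF2 the deposited gene starts at 92574105 and 163266576, and for SPC25 at 168913371 on the minus strand, upstream of these windows. Capitals mark matches to the CHR forms TTTGAA and TTCGAA and to the box CCAAT, searched on both strands, so a match on the other strand reads TTCAAA or ATTGG.
PLK1: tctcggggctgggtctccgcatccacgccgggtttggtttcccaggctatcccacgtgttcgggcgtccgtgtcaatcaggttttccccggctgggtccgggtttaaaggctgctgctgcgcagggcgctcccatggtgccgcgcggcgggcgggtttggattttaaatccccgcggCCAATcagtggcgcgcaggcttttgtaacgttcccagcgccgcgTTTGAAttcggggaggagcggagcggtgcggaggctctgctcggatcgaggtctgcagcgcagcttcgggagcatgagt
KIF11: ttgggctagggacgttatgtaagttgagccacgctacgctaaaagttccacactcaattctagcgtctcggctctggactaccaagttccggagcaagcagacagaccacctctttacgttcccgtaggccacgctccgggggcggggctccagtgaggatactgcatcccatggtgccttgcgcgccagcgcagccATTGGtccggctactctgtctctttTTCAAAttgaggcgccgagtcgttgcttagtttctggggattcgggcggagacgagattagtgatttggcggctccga
SPC24: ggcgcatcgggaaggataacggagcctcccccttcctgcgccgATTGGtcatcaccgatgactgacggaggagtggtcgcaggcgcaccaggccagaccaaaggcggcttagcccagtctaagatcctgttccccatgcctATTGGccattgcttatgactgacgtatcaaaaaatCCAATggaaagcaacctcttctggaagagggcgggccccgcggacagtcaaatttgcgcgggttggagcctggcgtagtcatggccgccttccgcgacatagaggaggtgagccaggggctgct
SPC25: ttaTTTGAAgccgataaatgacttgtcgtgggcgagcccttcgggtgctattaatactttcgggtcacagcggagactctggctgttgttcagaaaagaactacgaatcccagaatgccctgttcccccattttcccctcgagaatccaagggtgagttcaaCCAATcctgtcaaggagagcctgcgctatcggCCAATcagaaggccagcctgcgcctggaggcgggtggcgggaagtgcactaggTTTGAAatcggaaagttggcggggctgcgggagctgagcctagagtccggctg
NDC80: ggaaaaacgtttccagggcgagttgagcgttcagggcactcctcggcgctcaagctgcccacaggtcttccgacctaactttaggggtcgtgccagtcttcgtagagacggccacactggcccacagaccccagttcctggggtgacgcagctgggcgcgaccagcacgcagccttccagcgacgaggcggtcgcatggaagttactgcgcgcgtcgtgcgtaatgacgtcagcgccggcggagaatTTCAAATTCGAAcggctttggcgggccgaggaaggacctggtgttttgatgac
NUF2: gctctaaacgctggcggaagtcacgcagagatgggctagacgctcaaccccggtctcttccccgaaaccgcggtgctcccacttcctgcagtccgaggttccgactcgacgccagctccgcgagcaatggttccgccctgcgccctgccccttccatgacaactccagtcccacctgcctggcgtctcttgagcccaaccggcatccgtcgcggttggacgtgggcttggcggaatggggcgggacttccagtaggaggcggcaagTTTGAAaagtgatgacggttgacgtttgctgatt
The window of PLK1 holds a TTTGAA 29 bases before the start site and a CCAAT 73 bases before it. KIF11 has the same pair at 28 and 53 bases before its start site. SPC25 holds 2 TTTGAA and 2 CCAAT matches, and SPC24 holds 3 CCAAT matches and neither TTTGAA nor TTCGAA. In NDC80 a TTTGAA and a TTCGAA lie side by side at the start site with no CCAAT, and NUF2 has a TTTGAA 16 bases past its start site with no CCAAT.

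Of the 48 members, 42 had a promoter in the RefSeq table, and 22 of those 42 (52.4%) held both a searched CHR form (TTTGAA or TTCGAA) and a CCAAT. With the first listed window kept for each gene, the pair was in 6.58% of all 27305 promoters of that length. It was in 5% of the 11169 promoters of genes tested. TTTGAA was present in 66.7% of the members' windows, 15.4% of all windows and 10.2% of those of genes tested. In the same order, TTCGAA was in 4.76% (2 of 42), 1.45% and 1.77%, and CCAAT in 71.4%, 35.7% and 36.8%. The pair was present in 7 of the 15 members that fell and had a promoter (46.7%), and in 15 of the 27 others (55.6%). A match is a run of letters in the window and was not tested as a binding site. No other CHR form was searched, so these shares hold for TTTGAA and TTCGAA alone, and a window without them may hold another form.

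Across the whole set, 16 members fell with Spautin-1, none rose, and 32 did not pass the test, which was the edgeR quasi-likelihood test with Benjamini-Hochberg adjustment over all genes and a threshold of 0.05. That is 33.3% of members called lower, where 10.5% of all genes tested were called lower, 11.5% higher and 22.0% in either direction. The median log2 fold change, Spautin-1 over vehicle, was -0.21 over the members and -0.01 over all genes. Changes ran from -1.21 in SPC25 to 0.41 in TTK, and only SPC25, PLK1 and SPC24 fell by more than 2-fold. Both Spautin-1 libraries lay below both vehicle libraries for 32 members (66.7%), against 30.6% of all genes. They lay above for 6 members (12.5%), against 30.8% of all genes, and the groups overlapped for the other 10. In RNA from whole cultures, fewer cells in mitosis and less of a transcript per cell cannot be told apart.

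The summed level of the 48 members was 7549 and 7276 CPM (counts scaled to a common library size) in the Spautin-1 libraries, against 9261 and 8635 CPM in the vehicle libraries. The groups did not overlap. At an unadjusted p under 0.05, 22 members were lower and 2 were higher, where 17.3% of all genes tested were lower and 17.7% higher. For 27 of the 32 members that did not pass, the 95% interval of the change stayed within 1.5-fold in both directions. For 3 it reached a 1.5-fold fall and for 2 a 1.5-fold rise, so a change of that size was not excluded there.

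The number of members called moved with single libraries. Without Spautin-1 replicate 1, 11 members were lower, where 6.29% of all genes were, and without Spautin-1 replicate 2, 6 were lower, where 3.95% of all genes were. Without vehicle replicate 1, 20 members were lower and 3 higher, where 14.2% of all genes were lower and 15.2% higher, and without vehicle replicate 2, 22 were lower and 0 higher, where 12.4% of all genes were lower and 13.5% higher. In such a fit the lone library is taken to vary like the pair of the other group. PLK1, SPC24, SPC25, KIF11, SMC4 and MYBL2 were called lower in all 15 alternative fits.

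**Figure D1:**
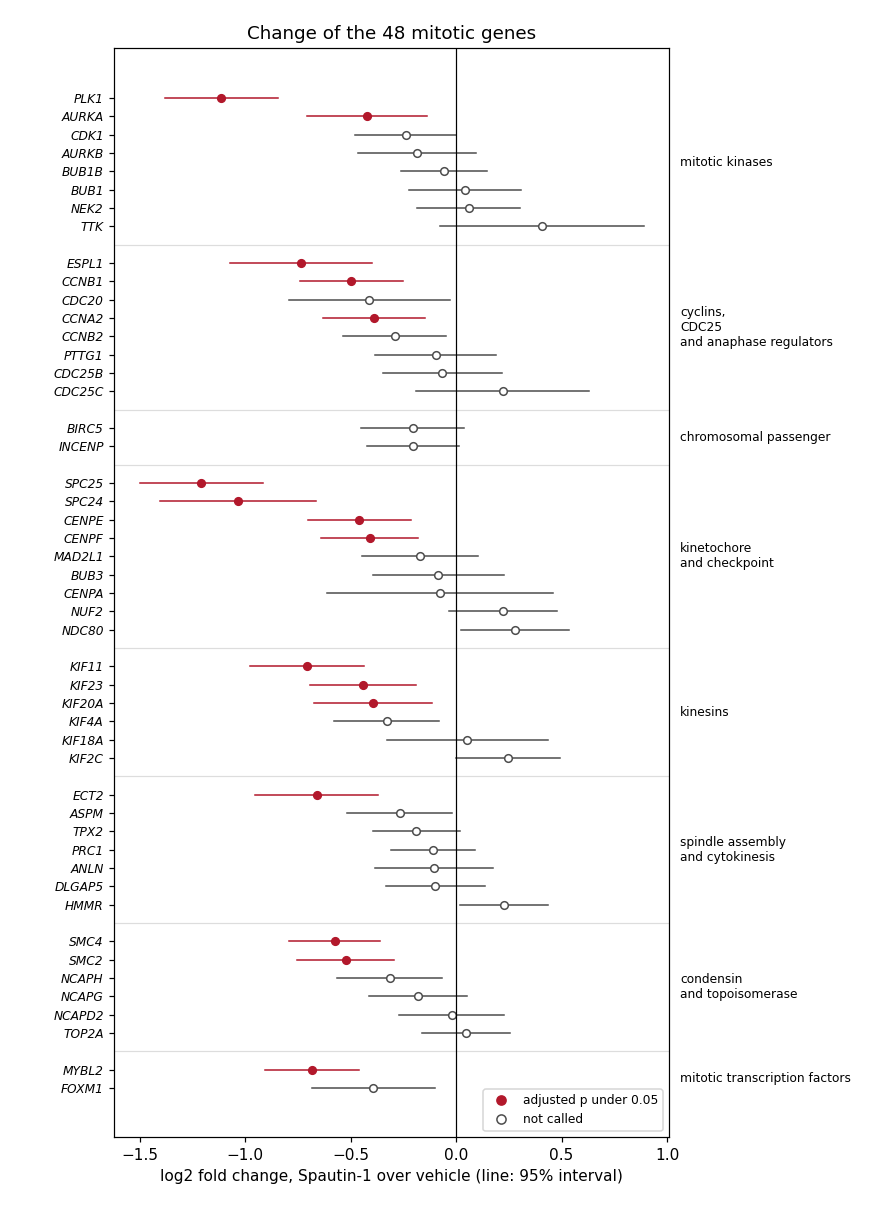
Log2 fold change of each of the 48 members, Spautin-1 over vehicle, with its 95% interval as a line, grouped by role. The 16 members called lower lie left of 0, from SPC25 at -1.21, and TTK lies farthest right at 0.41.

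Libraries held 34893634 to 38325536 counts with Spautin-1 and 34115420 to 38362526 with vehicle, and the lowest count of any member in any library was 245. All 7 B-cell markers were detected, with a summed level of 996 and 959 CPM in the Spautin-1 libraries and 742 and 654 CPM in the vehicle libraries. Of these, CD22, a B-cell adhesion receptor, rose (log2 fold change 0.86, edgeR adjusted p = 0.000283), as did MS4A1, which encodes CD20 (0.59, adjusted p = 0.00142). The other 5 did not pass and ran from -0.42 in CD79B to 0.11 in CD79A, and the median of the 7 was 0.04, or -0.12 with 1 called lower when vehicle replicate 1 was left out. The 5 T-cell markers summed to 0.480 and 0.808 CPM with Spautin-1 and 0.691 and 0.518 CPM with vehicle, and the 5 myeloid markers to 0.213 and 0.231 CPM with Spautin-1 and 0.662 and 0.725 CPM with vehicle. The stromal and epithelial markers summed to 51.2 and 55.0 CPM with Spautin-1 and 45.7 and 52.0 CPM with vehicle, nearly all of it EPCAM, at 50.5 and 54.7 CPM with Spautin-1 and 45.5 and 51.7 CPM with vehicle.

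Among the 8 mitotic kinases, PLK1 and AURKA fell and the other 6 did not pass, with a group median log2 fold change of -0.12. PLK1, the Polo-like kinase needed for mitotic entry, spindle poles and cytokinesis, lies at chr16:23677656-23690367 on GRCh38. It had 55.4 and 56.5 CPM in the Spautin-1 libraries, against 109 and 133 CPM in the vehicle libraries. Every Spautin-1 value lay far below every vehicle value, and the vehicle libraries differed more between themselves than the Spautin-1 libraries did. Means were 56.0 ± 0.757 CPM with Spautin-1 and 121 ± 16.5 CPM with vehicle (SD, n = 2 each). The log2 fold change was -1.11 ± 0.12 (SE), with an edgeR adjusted p of 8.79e-05.

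AURKA, the spindle-pole Aurora kinase that activates PLK1, had 23.6 and 23.2 CPM in the Spautin-1 libraries, against 31.6 and 31.0 CPM in the vehicle libraries. The groups were apart and each pair was tight. Its log2 fold change was -0.42 ± 0.13 (SE), with an edgeR adjusted p of 0.0375. Leaving out replicate 1 of Spautin-1 ended the call (-0.44, adjusted p = 0.233), and so did leaving out replicate 2 (-0.40, adjusted p = 0.308). The near-identical pseudogene AURKAP1 was counted 22 and 30 times with Spautin-1 and 84 and 78 times with vehicle, beside 884 and 803 counts of AURKA with Spautin-1 and 1099 and 1196 with vehicle, so reads may be split between them.

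AURKB, the Aurora kinase of the chromosomal passenger complex, had 37.1 and 42.0 CPM in the Spautin-1 libraries, against 42.8 and 47.0 CPM in the vehicle libraries. Its groups did not overlap, but the gap between them was smaller than the spread within either. The log2 fold change was -0.18 ± 0.13 (SE), with a 95% interval of -0.46 to 0.09 and an edgeR adjusted p of 0.339. CDK1, the kinase that sets off mitosis, had 85.8 and 88.7 CPM with Spautin-1, against 108 and 98.2 CPM with vehicle. Both Spautin-1 values were the lower ones, and the log2 fold change of -0.24 ± 0.11 (SE) did not pass (edgeR adjusted p = 0.144). It passed without vehicle replicate 2 (-0.31, adjusted p = 0.0105) and with an offset for GC content (-0.36, adjusted p = 0.0126).

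The other kinases, most of them of the spindle checkpoint, did not pass. BUB1, a kinase of the spindle checkpoint, had a log2 fold change of 0.04 with a 95% interval of -0.22 to 0.31, and turned to -0.030 with the GC offset. BUB1B, which encodes the checkpoint protein BUBR1, had 584 and 528 CPM with Spautin-1, against 601 and 556 CPM with vehicle, and its groups overlapped (log2 fold change -0.06, edgeR adjusted p = 0.717, and 0.023 without Spautin-1 replicate 2). TTK, the checkpoint kinase MPS1, was the member with the highest fold change, 0.41, and 1 library set it apart: 11.2 and 7.27 CPM with Spautin-1, against 7.05 and 6.91 CPM with vehicle (edgeR adjusted p = 0.216). Without Spautin-1 replicate 1 its change was 0.05. NEK2, a centrosome kinase, had a log2 fold change of 0.06, or -0.019 with the GC offset.

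Of the 8 cyclins, CDC25 phosphatases and anaphase regulators, CCNA2, CCNB1 and ESPL1 fell, none rose, and the group median was -0.34. CCNB1, the cyclin B that partners CDK1, had 64.1 and 68.9 CPM in the Spautin-1 libraries, against 95.5 and 92.1 CPM in the vehicle libraries. The pairs were well apart, and the log2 fold change was -0.50 ± 0.11 (SE), with an edgeR adjusted p of 0.00808. CCNA2, the cyclin A of S phase and G2, had 70.3 and 71.2 CPM with Spautin-1, against 89.2 and 96.1 CPM with vehicle (log2 fold change -0.39 ± 0.11, edgeR adjusted p = 0.0258). ESPL1, which encodes separase, the protease that cuts cohesin at anaphase, had 12.9 and 11.2 CPM with Spautin-1, against 19.9 and 20.3 CPM with vehicle. It fell the most of the group, with a log2 fold change of -0.74 ± 0.15 (SE) and an edgeR adjusted p of 0.00556.

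These 3 calls depended on the Spautin-1 libraries. Without Spautin-1 replicate 1, CCNB1 was at -0.46 (adjusted p = 0.140) and CCNA2 at -0.39 (0.225), and without Spautin-1 replicate 2, CCNB1 was at -0.54 (0.0848), CCNA2 at -0.39 (0.242) and ESPL1 at -0.63 (0.107). The directions stayed the same. CCNB2, the other B-type cyclin, had a log2 fold change of -0.29 and missed the threshold (edgeR adjusted p = 0.0838). It was called lower in 3 of the 15 alternative fits, that with the GC offset (-0.35, adjusted p = 0.0184) among them. The change of CCNB2 was -0.25 without vehicle replicate 1 and -0.33 without vehicle replicate 2. CDC20, which activates the anaphase-promoting complex, had 16.3 and 17.8 CPM with Spautin-1, against 18.8 and 26.4 CPM with vehicle. Its vehicle libraries differed widely, and its log2 fold change was -0.41 with all libraries (edgeR adjusted p = 0.115), -0.64 and called without vehicle replicate 1, and -0.14 without vehicle replicate 2 (adjusted p = 0.567). PTTG1, which encodes the separase inhibitor securin, and CDC25B, a phosphatase that activates CDK1, were at -0.10 and -0.07 (CDC25B at 0.0095 with the GC offset), and the related phosphatase CDC25C was at 0.22.

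Within a library, the level per kilobase of CCNB1 over that of CDK1 was 1.20 and 1.25 with Spautin-1, against 1.42 and 1.51 with vehicle. For PLK1 over CDK1 it was 0.530 and 0.523 with Spautin-1, against 0.832 and 1.11 with vehicle. Both ratios were lower in each Spautin-1 library than in each vehicle library. An exact permutation test on 2 against 2 libraries cannot give a p below 0.333, so none is given for ratios.

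The chromosomal passenger pair did not pass. INCENP, the scaffold that activates Aurora B, had the highest level per kilobase of all members, 165 CPM per kilobase with Spautin-1 and 190 with vehicle. Its libraries read 745 and 726 CPM with Spautin-1, against 769 and 927 CPM with vehicle, so that vehicle replicate 2 alone stood well above the rest. The log2 fold change was -0.20 ± 0.10 (SE), with a 95% interval of -0.42 to 0.01 and an edgeR adjusted p of 0.167. Without vehicle replicate 1 it was -0.34 (adjusted p = 0.000196), and without vehicle replicate 2 it was -0.06 (adjusted p = 0.659). BIRC5, which encodes survivin, had a log2 fold change of -0.21 (edgeR adjusted p = 0.213).

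**Figure D2:**
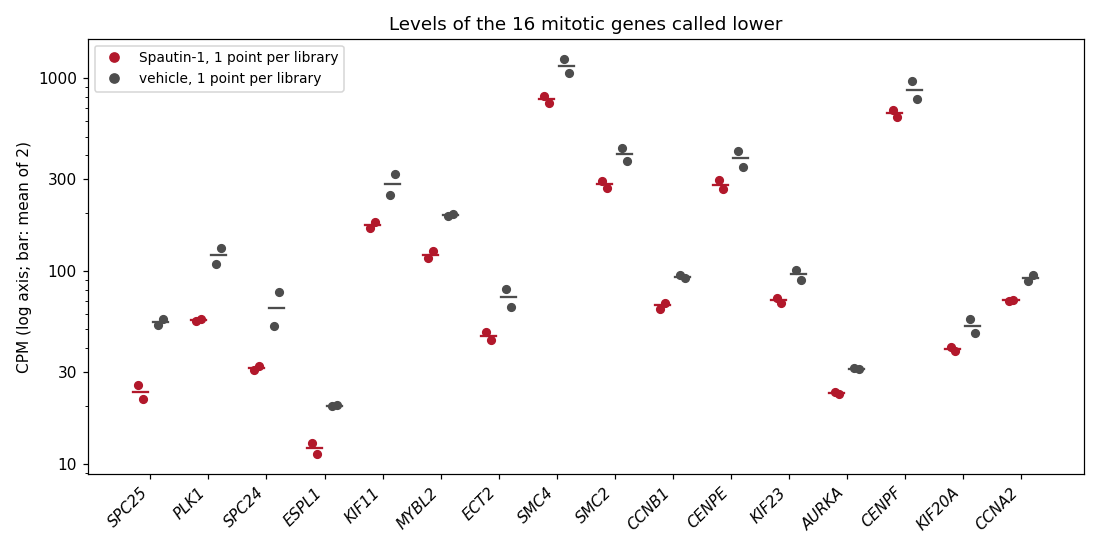
Level in CPM, on a log axis, of the 16 members called lower, with 1 point per library and a bar at the mean of the 2 libraries of each group. Spautin-1 points lie below vehicle points for every gene, with the widest gaps at PLK1, SPC24 and SPC25.

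The 9 kinetochore and checkpoint genes were uneven: SPC25, SPC24, CENPE and CENPF fell, none rose, and NDC80 and NUF2 had positive changes that did not pass. SPC25, a subunit at the centromere end of the Ndc80 complex, had 25.7 and 21.6 CPM in the Spautin-1 libraries, against 52.6 and 56.7 CPM in the vehicle libraries. Means were 23.7 ± 2.84 CPM with Spautin-1 and 54.6 ± 2.88 CPM with vehicle (SD, n = 2 each). The spread within a group was small beside the gap, and SPC25 showed the largest fall of the 48, with a log2 fold change of -1.21 ± 0.13 (SE) and an edgeR adjusted p of 9.28e-05.

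SPC24, its partner subunit, had 30.9 and 32.4 CPM with Spautin-1, against 51.8 and 77.9 CPM with vehicle. All Spautin-1 values were lower, but vehicle replicate 2 was far above vehicle replicate 1. The log2 fold change was -1.03 ± 0.17 (SE), with an edgeR adjusted p of 0.00128, and it ran from -1.30 without vehicle replicate 1 to -0.71 without vehicle replicate 2. NDC80, the microtubule-binding subunit, had 58.2 and 63.0 CPM with Spautin-1, against 50.3 and 49.5 CPM with vehicle. NUF2, which pairs with NDC80 at the microtubule end, had 73.2 and 65.8 CPM with Spautin-1, against 61.1 and 58.2 CPM with vehicle. For both, the Spautin-1 libraries were the higher ones, with log2 fold changes of 0.28 ± 0.12 for NDC80 and 0.22 ± 0.12 for NUF2 (SE; edgeR adjusted p = 0.110 and 0.205). NDC80 passed without vehicle replicate 1 (0.29, adjusted p = 0.0305).

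Put as a ratio of levels per kilobase within each library, SPC25 over NDC80 was 0.858 and 0.668 with Spautin-1, against 2.03 and 2.22 with vehicle. SPC24 over NDC80 was 0.665 and 0.645 with Spautin-1, against 1.29 and 1.97 with vehicle. NUF2 over NDC80 was 1.33 and 1.10 with Spautin-1, against 1.28 and 1.24 with vehicle. SPC24 and SPC25 were each lower and NDC80 higher in both Spautin-1 libraries, so the first 2 ratios could not overlap between groups and add nothing to those values. The ratio of NUF2 to NDC80 overlapped.

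**Figure D3:**
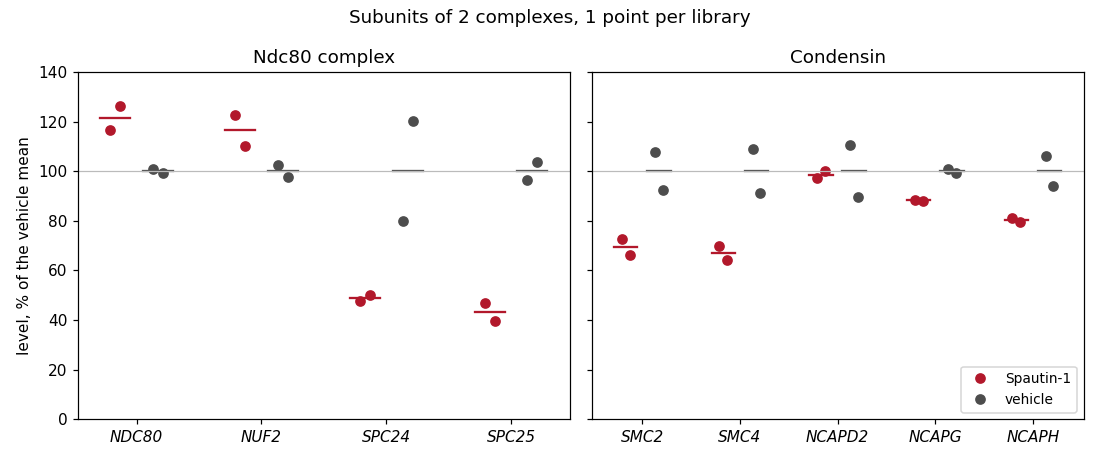
Level of each Ndc80 complex and condensin subunit in each library, as a percentage of that gene's vehicle mean, with Spautin-1 left of vehicle and a line at each group's mean. SPC24 and SPC25 lie low with Spautin-1 while NDC80 and NUF2 lie above their vehicle libraries. In condensin, SMC2, SMC4, NCAPG and NCAPH lie below their vehicle libraries while NCAPD2 overlaps.

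CENPE, a kinesin motor of the kinetochore that carries chromosomes to the spindle equator, had 296 and 266 CPM in the Spautin-1 libraries, against 423 and 349 CPM in the vehicle libraries. CENPF, a large protein of the outer kinetochore, had 683 and 634 CPM with Spautin-1, against 967 and 782 CPM with vehicle. In both genes the groups were apart and vehicle replicate 1 was the highest library. The log2 fold changes were -0.46 ± 0.11 for CENPE and -0.41 ± 0.11 for CENPF (SE; edgeR adjusted p = 0.0123 and 0.0165). Both calls were lost without Spautin-1 replicate 2, with CENPE at -0.38 (adjusted p = 0.159) and CENPF at -0.35 (adjusted p = 0.137), and without vehicle replicate 1 CENPF was at -0.25 (adjusted p = 0.00878). CENPA, the centromeric histone, had 11.7 and 11.2 CPM with Spautin-1, against 8.29 and 15.8 CPM with vehicle, so its vehicle libraries lay on both sides (log2 fold change -0.08). Its direction turned with the vehicle library left out: -0.47 without replicate 1 (edgeR adjusted p = 0.0279) and 0.47 without replicate 2 (adjusted p = 0.0683). The checkpoint proteins BUB3 and MAD2L1 had log2 fold changes of -0.08 and -0.17 and did not pass, and BUB3 was at 0.0066 without Spautin-1 replicate 2.

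Among the 6 kinesins, KIF11, KIF23 and KIF20A fell, none rose, and the median was -0.36. KIF11, the Eg5 motor that pushes spindle poles apart, had 167 and 180 CPM in the Spautin-1 libraries, against 248 and 319 CPM in the vehicle libraries. The groups were well separated, with the vehicle libraries the more spread. The log2 fold change was -0.71 ± 0.12 (SE; edgeR adjusted p = 0.00185), between -0.88 without vehicle replicate 1 and -0.51 without vehicle replicate 2.

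KIF23, a motor of the central spindle, had 72.9 and 68.8 CPM with Spautin-1, against 102 and 90.5 CPM with vehicle, with a log2 fold change of -0.44 ± 0.12 (SE) and an edgeR adjusted p of 0.0171. KIF20A, which brings the passenger complex to the central spindle, had 40.6 and 38.7 CPM with Spautin-1, against 56.5 and 47.9 CPM with vehicle, with a log2 fold change of -0.40 ± 0.13 (SE) and an edgeR adjusted p of 0.0456. Both groups were apart for both motors. Neither call survived the loss of a Spautin-1 library: without replicate 1, KIF23 was at -0.49 (adjusted p = 0.102) and KIF20A at -0.44 (0.201), and without replicate 2, KIF23 was at -0.39 (0.238) and KIF20A at -0.35 (0.352). KIF20A also missed the threshold without vehicle replicate 1 (-0.27, adjusted p = 0.0547).

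KIF2C, which takes microtubules apart at centromeres, had 154 and 162 CPM with Spautin-1, against 144 and 122 CPM with vehicle. Its Spautin-1 libraries were the higher ones, with a log2 fold change of 0.24 ± 0.11 (SE) and an edgeR adjusted p of 0.145, and it passed without vehicle replicate 1 (0.37, adjusted p = 0.000507) but was at 0.13 without vehicle replicate 2 (adjusted p = 0.359). KIF4A, a chromosome-bound kinesin, had a log2 fold change of -0.33 (edgeR adjusted p = 0.0585) and was called lower in 9 of the 15 alternative fits. Its change was -0.25 without vehicle replicate 1 and -0.41 without vehicle replicate 2. KIF18A, which dampens chromosome movements, was at 0.05, with -0.062 under the GC offset, -0.18 without vehicle replicate 2 and -0.016 without Spautin-1 replicate 2.

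Only ECT2 passed among the 7 spindle assembly and cytokinesis genes, whose median was -0.11. ECT2, the exchange factor that activates RhoA for the cleavage furrow, had 48.6 and 44.2 CPM in the Spautin-1 libraries, against 81.4 and 65.3 CPM in the vehicle libraries. The groups did not overlap, and the log2 fold change was -0.66 ± 0.13 (SE; edgeR adjusted p = 0.0045), but the call was lost when replicate 2 of Spautin-1 was left out (-0.59, adjusted p = 0.0720). HMMR, a microtubule-binding protein of spindle poles, was the other way, with 307 and 305 CPM with Spautin-1, against 271 and 251 CPM with vehicle. Its log2 fold change of 0.23 ± 0.10 (SE) did not pass (edgeR adjusted p = 0.113), except without vehicle replicate 1 (0.28, adjusted p = 0.0068). TPX2, which activates Aurora A, and ASPM, a spindle-pole protein, were at -0.19 and -0.27 and did not pass. ASPM was called lower in 3 of the 15 alternative fits, those with the GC and length offsets among them. Its change was -0.39 without vehicle replicate 2 and -0.13 without vehicle replicate 1. DLGAP5, PRC1 and ANLN, proteins of spindle fibres, the central spindle and the cleavage furrow, lay between -0.11 and -0.10, with ANLN at 0.034 without Spautin-1 replicate 2, and 57.6% of the exonic bases of PRC1 are shared with an overlapping gene on the same strand.

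In the group of condensin, the ring that compacts chromosomes, with topoisomerase, SMC2 and SMC4 fell. NCAPG, NCAPH, NCAPD2 and TOP2A did not pass (median of the 6, -0.25). NCAPG and NCAPH were also lower in both Spautin-1 libraries. Their 95% intervals (-0.41 to 0.05 and -0.56 to -0.07) overlapped that of SMC2 (-0.75 to -0.29). SMC4, the ATPase subunit with the higher level, had 814 and 749 CPM in the Spautin-1 libraries, against 1267 and 1063 CPM in the vehicle libraries. Means were 782 ± 45.6 CPM with Spautin-1 and 1165 ± 144 CPM with vehicle (SD, n = 2 each), and the groups were apart. The log2 fold change was -0.58 ± 0.10 (SE), with an edgeR adjusted p of 0.0017. SMC2, its partner ATPase, had 296 and 270 CPM with Spautin-1, against 438 and 375 CPM with vehicle. It fell too (log2 fold change -0.52 ± 0.11, edgeR adjusted p = 0.00443), but lost the call without Spautin-1 replicate 2 (-0.45, adjusted p = 0.0783).

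NCAPD2, a HEAT-repeat subunit of condensin I, had 220 and 226 CPM with Spautin-1, against 250 and 202 CPM with vehicle. Its groups overlapped, and its log2 fold change was -0.02 with a 95% interval of -0.27 to 0.23, or 0.14 without vehicle replicate 1 and 0.0093 with the GC offset. NCAPH, the subunit that closes the ring of condensin I, had 77.4 and 75.7 CPM with Spautin-1, against 101 and 89.5 CPM with vehicle. It missed the threshold (-0.31, edgeR adjusted p = 0.0662) and was called lower in 7 of the 15 alternative fits. Without vehicle replicate 2 it was at -0.40. NCAPG, the other HEAT-repeat subunit, had 93.3 and 92.6 CPM with Spautin-1, against 106 and 105 CPM with vehicle (-0.18, edgeR adjusted p = 0.252). It passed only with the GC offset (-0.28, adjusted p = 0.0433). The level per kilobase of SMC4 over that of NCAPD2 was 2.94 and 2.62 with Spautin-1, against 4.02 and 4.16 with vehicle, while SMC2 over SMC4 was 0.458 and 0.454 with Spautin-1, against 0.436 and 0.445 with vehicle. The first ratio was clearly apart between groups, and the second differed by little. As NCAPD2 changed little, the first ratio largely repeats the fall of SMC4. No ratio of SMC4 to NCAPG or NCAPH was taken. TOP2A, the topoisomerase that untangles sister chromatids, had 604 and 568 CPM with Spautin-1, against 603 and 531 CPM with vehicle (0.05, 95% interval -0.16 to 0.26). It was at -0.048 with the GC offset, -0.042 without vehicle replicate 2 and -0.0087 without Spautin-1 replicate 1.

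MYBL2, which encodes B-MYB, the factor that joins MuvB to switch on late cell-cycle genes, had 117 and 127 CPM in the Spautin-1 libraries, against 194 and 198 CPM in the vehicle libraries. Both pairs were tight and far apart, and the log2 fold change was -0.68 ± 0.10 (SE), with an edgeR adjusted p of 0.000743. FOXM1, the forkhead factor that acts with it, had 36.1 and 33.9 CPM with Spautin-1, against 50.1 and 41.8 CPM with vehicle. It lay just outside the threshold (-0.39, edgeR adjusted p = 0.0541) and was called lower in 9 of the 15 alternative fits, DESeq2 (adjusted p = 0.0470) among them. The change was -0.52 without vehicle replicate 2 and -0.26 without vehicle replicate 1.

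Set side by side, the kinases had 2 of 8 members called lower, the kinetochore and checkpoint genes 4 of 9, the kinesins 3 of 6 and condensin with topoisomerase 2 of 6, where 10.5% of all genes tested were called lower. Their summed levels were 911 and 864 CPM with Spautin-1, against 1009 and 985 CPM with vehicle, for the kinases. For the kinetochore and checkpoint genes they were 1245 and 1162 CPM with Spautin-1, against 1692 and 1460 CPM with vehicle. Kinesins summed to 527 and 548 CPM with Spautin-1, against 673 and 684 CPM with vehicle. Condensin with topoisomerase summed to 2104 and 1982 CPM with Spautin-1, against 2765 and 2365 CPM with vehicle. Every one of these sums was lower in both Spautin-1 libraries, but abundant genes weigh most in a sum. SMC4 had means of 1165 CPM with vehicle and 782 CPM with Spautin-1, and CENPF 874 and 658 CPM, while TOP2A had 567 and 586 CPM. Differences between the groups of genes were not tested.

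Per kilobase the order of levels changed little at its ends. INCENP led in both conditions, SMC4 ranked 4 with Spautin-1 and 2 with vehicle, at 95.7 and 143 CPM per kilobase, and BUB1B had 125 CPM per kilobase with Spautin-1 and 130 with vehicle. The lowest were ESPL1, at 1.36 CPM per kilobase with Spautin-1 and 2.26 with vehicle, and TTK, at 2.02 with Spautin-1 and 1.52 with vehicle. Of the 16 members that fell, 10 share no exonic bases with another gene. PLK1 shares 12.8% of its exonic bases with genes on the other strand, SMC4 22%, CCNA2 9.24%, KIF20A 5.35%, KIF23 3.51% and SPC24 3.1%. The library kit keeps strand, but whether the counting used it is not stated.

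Other genes of the same machinery were counted from lists of their own. With all libraries, the counts are to be read against the 10.5% of all genes called lower and 11.5% called higher. Where counts without each library follow, they stand in the order Spautin-1 replicate 1, Spautin-1 replicate 2, vehicle replicate 1 and vehicle replicate 2. Those are to be read against the shares of all genes in the same fits, given above with the members. For the fits without a Spautin-1 library only the share called lower is given there. Counts that rose in those fits therefore have no share to be read against. Of 27 other kinetochore genes, 6 fell and none rose (median -0.14), and without each library 4, 2, 8 and 9 fell and 0, 0, 2 and 3 rose. ZWINT, a kinetochore protein of the checkpoint, had 126 and 129 CPM with Spautin-1, against 251 and 222 CPM with vehicle (log2 fold change -0.89 ± 0.11, edgeR adjusted p = 0.000147). SKA3, which helps Ndc80 hold microtubules, was at -0.84, and KNL1, the checkpoint scaffold, at -0.52 (edgeR adjusted p = 0.000837 and 0.0115). Of 18 other spindle and cytokinesis genes, 6 fell and none rose (median -0.17), with the kinesins KIF20B at -0.45, KIFC1 at -0.43 and KIF22 at -0.40, and without each library 2, 0, 6 and 8 fell and 0, 0, 3 and 0 rose.

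Of 18 genes listed for the anaphase-promoting complex and its regulators, 3 fell and 1 rose (median -0.14). FBXO5, an inhibitor of the complex, fell (-0.64, edgeR adjusted p = 0.00516), as did the subunits ANAPC2 (-0.56) and CDC26 (-0.37), and ANAPC16 rose (0.65, edgeR adjusted p = 0.00685). Without each library, 0, 0, 7 and 4 of them fell and 1, 0, 2 and 1 rose, and without vehicle replicate 2 the median was 0.0061. Of 14 cohesin and condensin II genes only SMC1A, a cohesin ring subunit, fell (-0.36, edgeR adjusted p = 0.0297), and without each library 1, 0, 2 and 5 fell and 0, 0, 2 and 0 rose. Of 11 other kinases and phosphatases of mitotic entry, 4 fell and 2 rose (median 0.02), and without each library 0, 1, 3 and 4 fell and 0, 0, 4 and 2 rose. That median was at or below -0.0077 with the GC offset, library-size scaling, protein-coding genes only and without either Spautin-1 library. PKMYT1, which inhibits CDK1, was at -0.61, CDC25A, which activates CDKs, at -0.69 and PLK4, the kinase of centriole duplication, at -0.48 (edgeR adjusted p = 0.00676, 0.00883 and 0.0101). WEE1, which inhibits CDK1, had 34.2 and 43.0 CPM with Spautin-1, against 28.2 and 28.8 CPM with vehicle, a log2 fold change of 0.44 with an edgeR adjusted p of 0.0454, and ENSA, an inhibitor of a mitotic phosphatase, was at 0.33 (adjusted p = 0.0309).

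Among 20 regulators of the DREAM and MuvB system, 5 fell and 3 rose (median -0.26), and without each library 3, 0, 7 and 8 fell and 0, 2, 3 and 3 rose. RBL1, the pocket protein p107, was at -0.80, E2F4, the E2F of the repressor complex, at -0.56 and E2F8, a repressor E2F, at -0.73 (edgeR adjusted p = 0.00268, 0.00784 and 0.00848). RBL2, the pocket protein p130, rose (0.61, edgeR adjusted p = 0.0158), as did LIN37, a MuvB subunit (1.42, adjusted p = 0.0163). CDKN1B, the CDK inhibitor p27, had 77.3 and 72.8 CPM with Spautin-1, against 43.4 and 54.4 CPM with vehicle, and rose, with a log2 fold change of 0.62 ± 0.13 (SE) and an edgeR adjusted p of 0.00621. CDKN1A, the inhibitor p21, was at -0.21 and did not pass (edgeR adjusted p = 0.484).

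DNA replication genes, which act in S phase, had 16 of 43 called lower (37.2%, against 10.5% of all genes) and none higher, with a median of -0.32. FEN1, the flap nuclease, had 110 and 115 CPM with Spautin-1, against 199 and 195 CPM with vehicle (log2 fold change -0.80 ± 0.10, edgeR adjusted p = 0.000239). CLSPN, a fork checkpoint protein, and POLE, the leading-strand polymerase, were both at -0.74. Without each library, 9, 7, 24 and 20 of the list fell and 0, 0, 1 and 0 rose. Of the 25 genes named from these other lists, ZWINT, SKA3, FEN1, CLSPN and POLE kept the call without each library in turn, and the other 20 lost it without at least 1, at edgeR adjusted p values between 0.0515 and 0.520.

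**Figure D4:**
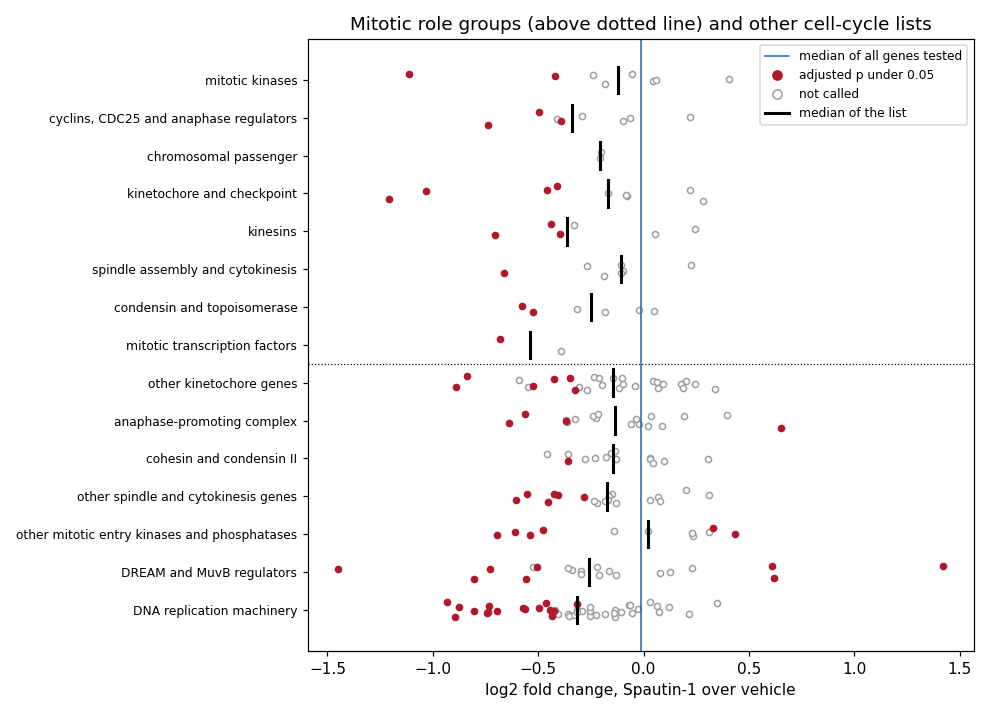
Log2 fold change, Spautin-1 over vehicle, of each gene in the 8 role groups of the 48 members and in 7 other cell-cycle lists, with filled points for genes called, open points for the rest and a black bar at each list's median. List medians lie at or left of the line for all genes at -0.01 except that of other mitotic entry kinases and phosphatases, at 0.02, which was -0.043 with the GC offset, -0.017 with library-size scaling and -0.0077 over protein-coding genes only.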

How the data were processed

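RNA was measured in 4 libraries of SU-DHL-2 cells, 2 given Spautin-1 and 2 given vehicle. RNA was taken up in TRIzol and made into stranded mRNA libraries, per the labels' protocols. Trimmomatic 0.36, featureCounts (Subread 1.5.1), edgeR 3.12.1 and GRCh38 are named in the submitters' processing notes. No source used here names the aligner or annotation release, or states the strand setting or how multi-mapped reads were treated. The authors deposited unnormalized read counts for each gene, with its coordinates and exonic length, per the file headers.

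These counts were fitted with edgeR 4.0.16 (R 4.3.3) after filterByExpr (minimum count 10, minimum total 15) and TMM scaling, by a two-sided quasi-likelihood F test with Benjamini-Hochberg adjustment over 18368 genes. Factors were 0.980 and 0.994 for Spautin-1 and 1.02 and 1.01 for vehicle. CPM values are TMM-scaled, and levels per kilobase divide them by deposited length. Standard errors come from the fold change and F, and 95% intervals from the same fit. The members and lists were chosen with earlier results of these data known, so lists are described by counts and medians without a test. Named genes are PLK1, CDK1, CCNB1, AURKA and AURKB, every called member, the member with the smallest p in a role group with none called, and 3 called genes per direction of each other list. Other members are given by value or range. CDKN1A, which was not called, was added beside CDKN1B outside this rule and is not counted among the named genes of other lists.

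Alternatives were RLE, upper-quartile and library-size scaling, no filter, 1 CPM in 2 libraries, DESeq2 1.42.0, limma-voom (limma 3.58.1), a replicate block, offsets on GC content and length (loess span 0.3), protein-coding genes only, a threshold of 0.01, and leaving out each library. GC content came from GENCODE 29, for 95.7% of genes tested. Promoters came from RefSeq on GRCh38.p14, with the first listed window of each gene. The procedure was tested on simulated counts with the same dispersion for every gene and no library effects. That setting is simpler than these data and does not bear on calls that move with single libraries.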

Additional observations from a re-analysis of the deposited data

How the results depend on the processing

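All 16 members stayed called lower under other scalings, other filters, DESeq2, limma-voom, the GC and length offsets, protein-coding genes only and the replicate block, which gave 16 to 22 lower and none higher. The count over all genes moved too. The 22 came with the GC offset, where 2456 of all genes were lower and 2327 higher, and the length offset had 2265 lower and 2152 higher. The replicate block gave 19 lower, adding KIF4A, NCAPH and FOXM1, with 2485 of all genes lower and 2615 higher, against 1933 and 2112 without it. Deviations correlated at 0.124 for same-numbered libraries over 9942 genes, and the labels do not say that numbers mark a shared culture. The other pairing must give the same value with the opposite sign, -0.124, so the correlation cannot show that numbers mark pairs. At a threshold of 0.01, 10 members were lower, with 861 of all genes lower and 1077 higher. With the GC offset the median log2 fold change was -0.27 for the members, -0.26 for the kinetochore and checkpoint genes, -0.20 for spindle assembly and cytokinesis, -0.32 for condensin and -0.47 for the transcription factors. The kinase median was -0.14 with upper-quartile scaling, -0.16 with library-size scaling and -0.15 over protein-coding genes only.

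Leaving out each library gave 6 to 22 members lower and 0 to 3 higher, and over all genes 780 to 2785 lower and 1067 to 2981 higher. Median changes ran from -0.13 to -0.087 for kinases, -0.35 to -0.24 for cyclins and anaphase regulators, -0.28 to -0.13 for the passenger pair, -0.27 to -0.18 for kinetochore genes, -0.46 to -0.26 for kinesins, -0.20 to -0.070 for spindle assembly and -0.59 to -0.48 for transcription factors. Among genes of other lists, WEE1 lost its call with upper-quartile and library-size scaling, both offsets and protein-coding genes only, ENSA with library-size scaling and CDC26 with the length offset. The direction turned under at least 1 alternative for 10 members, none of them called and none with a change above 0.105 in size: BUB1, BUB1B, NEK2, CDC25B, CENPA, BUB3, KIF18A, ANLN, NCAPD2 and TOP2A. The cause of each shift was not tested. With 2 libraries a group the fit had 2 residual degrees of freedom beside 10.2 borrowed across genes.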
